A study of Mus musculus with 4 samples.

Results

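Connexins are the membrane proteins of gap junctions. Hexamers of connexins form hemichannels, and hemichannels of adjoining cells dock into channels that let ions and small metabolites pass directly between cytoplasms. Of the 20 connexin genes among the 30406 genes common to all tables, the 4 described here are Gja1, the most widely expressed connexin of epithelia and connective tissue, and Gjb2, Gjb6 and Gjb5, 3 beta connexins of stratified epithelia. In adult skin the proteins of Gjb2 and Gjb6 can share channels, and in the adult mammary gland the Gja1 protein couples myoepithelial cells while that of Gjb2 is known from luminal cells. The genes were chosen by name and not by their levels, though with earlier results of these data known.

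RNA was measured by single-cell sequencing (10x Chromium 3′ chemistry) in mammary tissue of female WT C57B6 mice (the B6/N substrain in the study's methods) at 3 embryonic days (E13.5, E14.5, E15.5) and on the day of birth (P0). Tissue of several pups or embryos was pooled into 1 library per stage, each from its own dissection session, and cells were sorted on EpCAM after CD45, CD31 and Ter119 positive cells had been removed. The labels give no treatment and no allele other than wild type, and with 1 library per stage, stage and library cannot be told apart. No test between stages was therefore possible, and the intervals below are exact 95% limits that cover counting error only.

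The tables held 235, 76, 816 and 503 cells of at least 5000 UMIs (unique molecular identifiers, each standing for 1 captured transcript) and at most 6% mitochondrial UMIs in stage order. Cells with more keratin and Epcam UMIs (Epcam, Krt8, Krt18, Krt5, Krt14) than collagen UMIs (Col1a1, Col1a2, Col3a1) were taken as epithelium and the others as mesenchyme, and epithelium was divided at 5 UMIs of Krt8 plus Krt18, the keratins of simple epithelium. This gave 135, 31, 283 and 273 mesenchyme cells, 61, 23, 446 and 228 Krt8/18-high epithelial cells, and 37, 22, 86 and 2 Krt8/18-low epithelial cells in stage order. The P0 class of 2 cells was compared with no other class by itself and entered only the P0 epithelium as a whole and the ranking of like genes. Levels are in CPM, the UMIs of a gene per 1000000 UMIs of its class, in which a transcript counts once whatever its length. Median UMIs per cell ranged from 8743 in P0 mesenchyme to 27646 in E14.5 Krt8/18-high cells, and no barcode was shared among the cells kept.

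The epithelial classes are named by their keratins because their markers did not separate a mammary from a skin class. A sum of 13 mammary genes was higher in Krt8/18-high than Krt8/18-low cells at all 3 embryonic stages, for example 1832 against 816 CPM at E13.5. However, 7 genes of the periderm, the outer embryonic skin layer, reached 3255 CPM in the Krt8/18-high cells of E13.5 against 1195 CPM in the Krt8/18-low cells. At E15.5 the 11 skin genes stood at 3351 CPM in the Krt8/18-high class and at 8541 CPM in the Krt8/18-low class. Mesenchyme held to its name, with 27.0, 13.1, 86.5 and 82.1 CPM for a sum of 8 epithelial genes in stage order.

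Gja1 and Gjb5 lie on chromosomes 10 and 4, and Gjb2 and Gjb6 side by side on chromosome 14 (mouse build GRCm38, GENCODE M21). Gja1 (ENSMUSG00000050953) spans chr10:56377330-56402513 on the plus strand. Gjb2 (ENSMUSG00000046352, chr14:57098600-57104702, minus strand) and Gjb6 (ENSMUSG00000040055, chr14:57123303-57133611, minus strand) are neighbours with 18600 bases between them. Gjb5 (ENSMUSG00000042357) spans chr4:127354809-127358181 on the minus strand. The 250 bases before the RefSeq start of each member (GRCm38.p6, given 5′ to 3′ on the gene's strand) are shown because the neighbours Gjb2 and Gjb6 had like patterns below while Gja1 had another. Capitals mark matches on either strand to the GC box spelled GGGCGG, the core promoter element spelled TATAAA, the AP-1 motif spelled TGANTCA, the TFAP2 motif spelled GCCNNNGGC or the box spelled CCAAT.
Gja1, chr10:56377050-56377299: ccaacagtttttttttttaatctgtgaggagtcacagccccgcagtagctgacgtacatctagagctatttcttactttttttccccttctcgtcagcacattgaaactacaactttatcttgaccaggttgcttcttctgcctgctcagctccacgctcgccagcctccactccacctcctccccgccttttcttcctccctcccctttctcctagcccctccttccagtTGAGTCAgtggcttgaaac
Gjb2, chr14:57104703-57104952: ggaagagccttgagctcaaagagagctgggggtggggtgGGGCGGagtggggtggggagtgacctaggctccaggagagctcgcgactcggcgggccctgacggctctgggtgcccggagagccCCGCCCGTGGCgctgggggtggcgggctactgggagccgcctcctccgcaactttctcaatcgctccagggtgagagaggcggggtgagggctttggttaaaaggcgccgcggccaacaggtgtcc
Gjb6, chr14:57133612-57133861: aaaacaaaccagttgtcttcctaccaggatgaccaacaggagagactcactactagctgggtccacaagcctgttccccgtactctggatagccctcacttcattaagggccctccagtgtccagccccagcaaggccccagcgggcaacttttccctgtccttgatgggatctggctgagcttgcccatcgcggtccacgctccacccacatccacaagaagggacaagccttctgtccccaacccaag
Gjb5, chr4:127358165-127358414: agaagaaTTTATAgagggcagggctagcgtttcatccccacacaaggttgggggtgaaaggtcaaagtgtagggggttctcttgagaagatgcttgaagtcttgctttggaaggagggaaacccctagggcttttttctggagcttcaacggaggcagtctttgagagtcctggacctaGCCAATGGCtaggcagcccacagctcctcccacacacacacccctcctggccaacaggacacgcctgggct
All 4 members were found in the promoter table. Gja1 had a single match, to AP-1 at position -19 from the start, a motif found in 6.75% of 32851 promoter windows of this length. Gjb2 had GC boxes at positions -211 and -126 and a TFAP2 match at -124 that overlaps the second of them (32.7% and 13.7% of windows hold these motifs). Its GC content of 69.2% exceeded that of 89.6% of windows, and it held 18 CpG dinucleotides against 5 in Gjb6 and 6 in Gja1. Gjb6 held no match, and Gjb5 held a TATA-type match at -243 (12.4% of windows) and overlapping TFAP2 and CCAAT matches at -71 and -70 (33.8% of windows for CCAAT). A match is a description of the letters only.

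Gja1 was the most abundant connexin transcript of the epithelium at every stage, and its level in epithelium and mesenchyme drew closer from E13.5 to P0. In Krt8/18-high cells Gja1 stood at 573 CPM (531–618), 505 CPM (453–560), 584 CPM (571–598) and 218 CPM (200–236) in stage order. In Krt8/18-low cells it stood at 370 CPM (329–413), 424 CPM (373–481) and 594 CPM (561–629) at the 3 embryonic stages. In mesenchyme the levels were 57.3 CPM (48.1–67.7), 51.3 CPM (37.1–69.1), 124 CPM (116–132) and 144 CPM (129–160). No epithelial interval overlapped the mesenchymal interval of its stage, and the P0 epithelium and P0 mesenchyme were the nearest to each other.

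**Figure D1:**
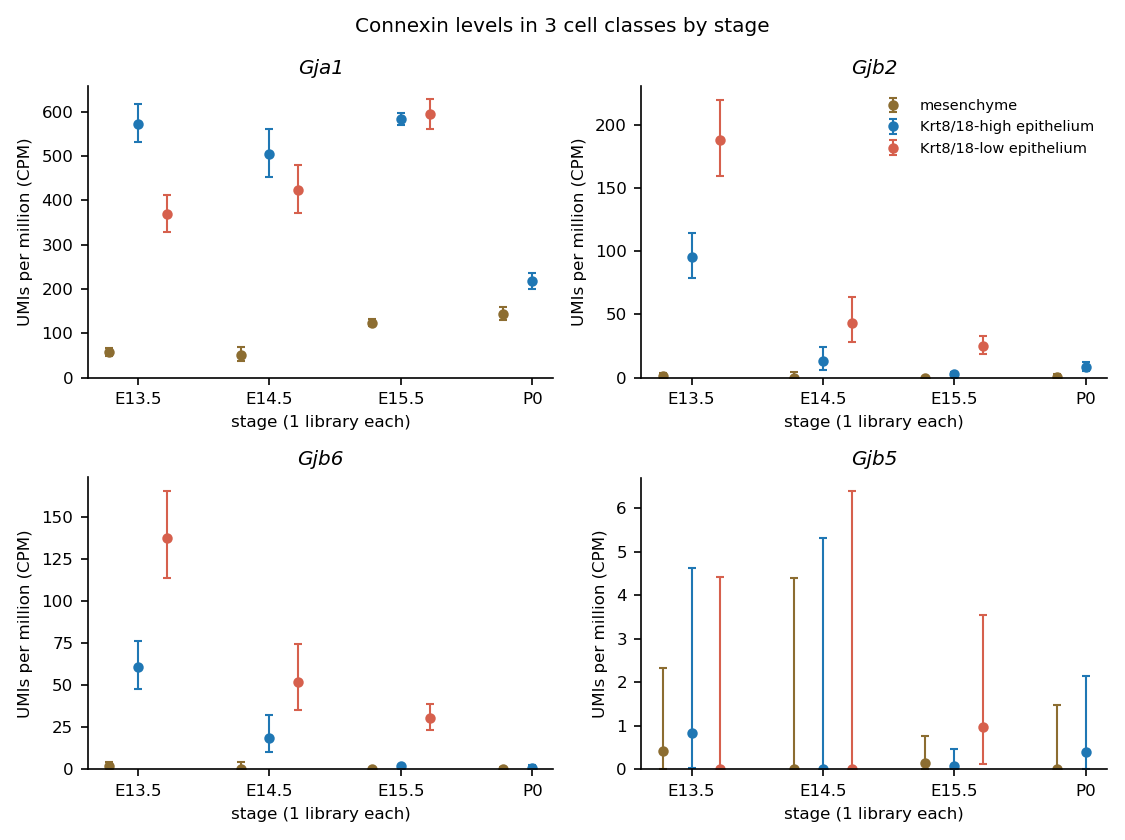
Levels of Gja1, Gjb2, Gjb6 and Gjb5 (CPM, 1 panel per gene with its own axis) by stage in mesenchyme, Krt8/18-high and Krt8/18-low epithelium, with exact 95% Poisson intervals as bars (1 library per stage; the P0 Krt8/18-low class of 2 cells is not drawn). Epithelial Gja1 points lie between 218 and 594 CPM and mesenchymal points between 51.3 and 144 CPM, while Gjb2 and Gjb6 stand at 188 and 138 CPM in the E13.5 Krt8/18-low cells and lower at each later stage drawn for that class.

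The share of cells with a Gja1 UMI gave the same order at the embryonic stages. Of Krt8/18-high cells, 95.1%, 95.7%, 99.1% and 61.0% held at least 1 Gja1 UMI in stage order, and of mesenchyme cells 46.7%, 51.6%, 67.5% and 49.8%. With each cell thinned to 5000 UMIs, so that depth was equal, the shares were 77.0%, 87.0%, 87.2% and 44.7% in Krt8/18-high cells and 22.2%, 19.4%, 31.8% and 37.0% in mesenchyme. At P0 the thinned shares were thus close, and the median Krt8/18-high cell held 104 CPM of Gja1, below the class level of 218 CPM, against 535 CPM for the median cell at E15.5. The highest single cell of the class at P0 held 39 Gja1 UMIs and the highest mesenchyme cell 23, so the classes overlapped widely from cell to cell.

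**Figure D2:**
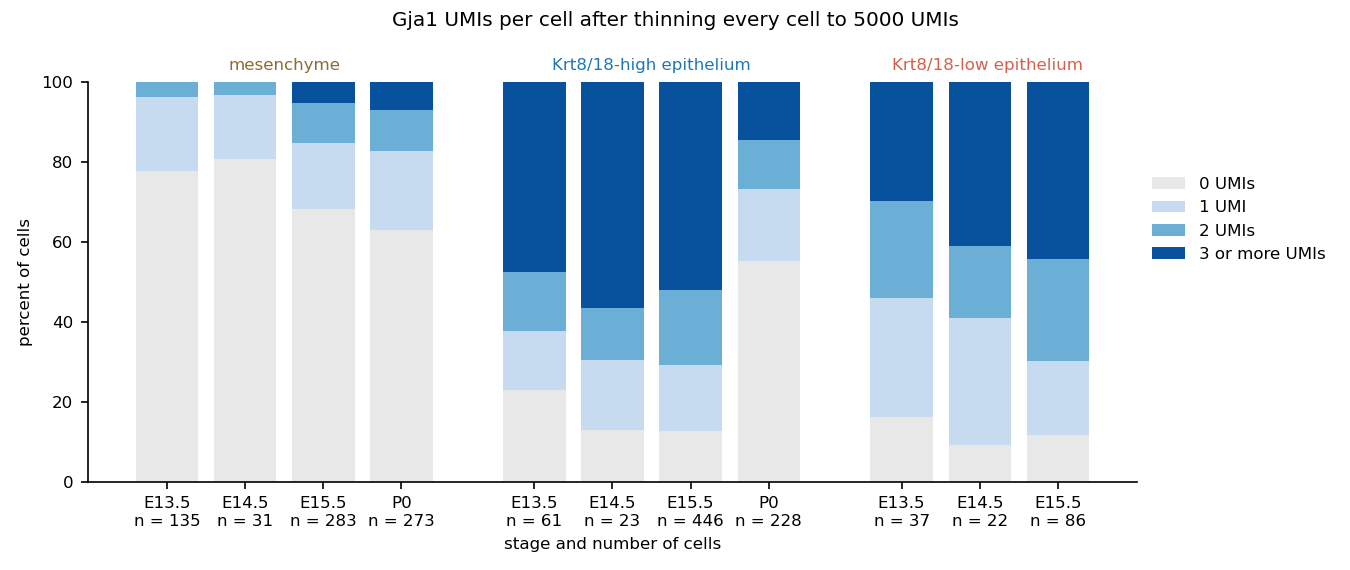
Percent of cells (vertical axis) with 0, 1, 2 or at least 3 Gja1 UMIs after thinning each cell to 5000 UMIs, 1 stacked bar per stage and class. Cells with at least 1 UMI make up 77.0% to 87.2% of embryonic Krt8/18-high cells, 44.7% of those at P0, and 19.4% to 37.0% of mesenchyme.

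Epithelial over mesenchymal Gja1 was 8.55-fold (7.15–10.3) at E13.5, 9.12-fold (6.69–12.7) at E14.5, 4.72-fold (4.41–5.07) at E15.5 and 1.51-fold (1.32–1.73) at P0. The difference was past 2-fold with 10 CPM added to both levels at the 3 embryonic stages (log2 differences of 2.89, 2.96 and 2.15), and at P0 it was not (0.56). Gja1 transcripts in mesenchyme were above the level at which 8 epithelial genes appeared there, with 1 exception at E14.5. Mesenchymal Gja1 was 11.7%, 11.0%, 21.2% and 66.3% of the epithelial level in stage order, whereas these genes (Cdh1, Cldn7, Cldn3, Trp63, Esrp1, Grhl2, Perp, Dsp) had medians of 1.12%, 0.643%, 3.82% and 4.20%. At E14.5 the highest of the 8 reached 12.5%, above Gja1, and at the other stages their highest values of 2.03%, 7.71% and 10.4% were below it.

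Between E15.5 and P0 Gja1 was lower in Krt8/18-high epithelium and not in mesenchyme. In mesenchyme the level at E15.5 was 2.16-fold (1.81–2.61) that at E13.5, and the P0 level was 1.16-fold (1.02–1.31) that at E15.5. With 10 CPM added the E15.5 over E13.5 log2 difference was 0.99, just short of the 2-fold line, which 2.58% of genes passed upward. Krt8/18-high cells had an E15.5 over E13.5 ratio of 1.02 (0.942–1.10). With only the bud-led E13.5 cells described further on, set against the whole E15.5 class, it was 1.93 (1.58–2.38). At P0 the Krt8/18-high level was 2.68-fold lower (2.46–2.93) than at E15.5. Among 11993 genes 5.96% were lower by 2-fold or more in that comparison, and Gja1 was the only 1 of the 3 members tested among them (log2 difference -1.38). The P0 tissue was digested with other enzyme amounts and its cells held fewer UMIs, and the part of either in the difference was not tested.

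Gja1 was lower in Krt8/18-low than in Krt8/18-high cells at E13.5, and the interval at E15.5 spanned equal levels. Krt8/18-low over Krt8/18-high was 0.645 (0.562–0.738), then 0.840 (0.711–0.992), and 1.02 (0.956–1.08) by E15.5. The middle ratio was near the limit, and its interval spanned 1 after thinning to 5000 UMIs (0.833, 0.565–1.22) and with a keratin limit of 10 UMIs (0.877, 0.737–1.05). At E13.5 the level had no single order along the Krt8 plus Krt18 count: it was 374 CPM in cells with 0 of these UMIs, 302 CPM with 5 to 9, 857 CPM with 20 to 49 and 498 CPM in the 3 cells with 50 or more. At E15.5 all 6 bins lay between 536 and 654 CPM.

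Within a stage Gja1 also varied among cells grouped by other genes, taken from earlier work on these data and so a description. At P0, 18 Krt8/18-high cells led by Acta2 and Myh11, the contractile genes of myoepithelium, held 309 CPM of Gja1. The 173 cells led by Aldh1a3, Notch1 and Lypd3, genes of luminal progenitors, held 234 CPM, and the 31 led by Prlr, Cited1 and Esr1, genes of hormone-responsive luminal cells, held 138 CPM. In level both of the first groups were above the third, by 2.23-fold (1.56–3.19) and 1.69-fold (1.32–2.20), and their own ratio of 1.32 (0.989–1.74) spanned 1. The share of cells with a Gja1 UMI did not follow the levels. It was 83.3% in Acta2-led, 55.5% in Aldh1a3-led and 80.6% in Prlr-led cells, and 77.8%, 39.9% and 51.6% after thinning. The Aldh1a3-led cells were thus above the Prlr-led cells in level and below them in share. At E15.5, by contrast, Krt8/18-high cells led by Cxcl14, Pthlh, Ndnf and Lmo1 (257 cells) and those led by Anxa1, Plet1, Lgals3 and Ly6d (177 cells) held 593 and 571 CPM, a ratio of 1.04 (0.991–1.09).

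Mesenchymal Gja1 differed among some mesenchyme groups at E15.5 and P0. At E15.5 the 89 cells led by Plagl1 and Cdkn1c held 175 CPM and the 194 led by Esr1, Lef1, Crabp1 and Vcan, genes of mesenchyme next to the bud, held 105 CPM, a ratio of 0.601 (0.524–0.690). A single cell of 72390 UMIs gave 65 of the 341 Gja1 UMIs of the Plagl1-led cells, and the ratio without it was not computed. The same ratio at E13.5 and E14.5, 0.752 (0.487–1.13) and 0.581 (0.278–1.15), spanned 1. At P0 the 92 cells led by Pi16, Dpp4 and Sema3c held 175 CPM, the 104 led by Eln, Mfap4 and Mgp held 146 CPM, and the 63 led by Col15a1, Fabp4 and Aoc3 held 101 CPM. The last group was below both others (0.575, 0.416–0.784, and 0.689, 0.494–0.951). The ratio of the Pi16-led over the Eln-led cells, 1.20 (0.948–1.52), spanned 1. Cells with at least 2 Top2a plus Mki67 UMIs, marks of division, were compared with the rest of their class. In Krt8/18-high epithelium they held less Gja1 at E15.5 (496 against 628 CPM) and P0 (141 against 233 CPM). At E13.5 and E14.5 the ratios of 1.01 (0.866–1.17) and 0.936 (0.742–1.18) spanned 1. Dividing Krt8/18-low cells held less at E13.5 (0.645, 0.512–0.811) and E14.5 (0.682, 0.509–0.906), and the E15.5 interval (0.755–1.03) spanned 1. In mesenchyme the embryonic intervals spanned 1, and dividing cells of P0 held 2 Gja1 UMIs.

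Gjb2 and Gjb6 were epithelial transcripts of E13.5, most abundant in Krt8/18-low cells and low by E15.5. Gjb2 gave 157 UMIs or 188 CPM (160–220) in Krt8/18-low cells of E13.5, 43.3 CPM (28.0–63.9) at E14.5 and 24.9 CPM (18.6–32.8) at E15.5. In Krt8/18-high cells it gave 95.4 CPM (78.8–115), 12.9 CPM, 3.18 CPM (2.26–4.35) and 8.11 CPM (5.02–12.4) from E13.5 to P0. In mesenchyme there were 3, 0, 0 and 2 UMIs in stage order. The 0 of 283 mesenchyme cells at E15.5 allows a share of up to 1.06% of cells with a UMI, taking 3 cells as the most that a count of 0 allows.

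Gjb6 had the same order. It stood at 138 CPM (114–165), 51.9 CPM (35.0–74.1) and 30.3 CPM (23.2–38.9) in Krt8/18-low cells, and at 60.6 CPM (47.5–76.1), 18.7 CPM and 1.71 CPM (1.06–2.62) in Krt8/18-high cells of the embryonic stages. Mesenchyme held 4, 0, 1 and 0 UMIs, and at P0 the 228 Krt8/18-high cells held 1 UMI. Of the 9 Gjb2 and 13 Gjb6 UMIs in E14.5 Krt8/18-high cells, 8 and 12 came from a single cell of 58836 UMIs, so these levels rest on that cell: without the deepest 5% of cells both stood at 1.94 CPM.

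Against mesenchyme, epithelial Gjb2 was 107-fold higher (36.2–522) and Gjb6 55.4-fold higher (21.3–206) at E13.5. These folds did not hold for the bud-led cells described further on: with E13.5 epithelium limited to them Gjb6 was at 5.10 (0.747–30.2), and Gjb2 had 3 UMIs in each tissue, too few for a fold. At E14.5, where mesenchyme held 0 UMIs, they were at least 7.46-fold (lower limit 5.74) and at least 9.43-fold (lower limit 7.35) higher, with 3 counts set for mesenchyme. At E15.5 Gjb2 was at least 15.2-fold higher (lower limit 12.1) and Gjb6 42.2-fold (7.36–1685). At P0 Gjb2 was 10.1-fold higher (2.46–88.6), and Gjb6 was too sparse for a ratio.

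With 10 CPM added and at least 20 UMIs over both groups required, Gja1, Gjb2 and Gjb6 were all past 2-fold in epithelium at E13.5, where 5.72% of 10522 genes were higher. The same 3 were past it at E14.5, where 9.32% of 8989 genes were. At E15.5, with 6.56% of 13025 genes higher, Gja1 alone passed, Gjb2 and Gjb6 being at log2 differences of 0.70 and 0.64 because their levels were near the 10 CPM added. At P0 neither Gja1 nor Gjb2 passed (12.4% of 10376 genes did). No member was lower in epithelium by 2-fold at any stage, as 10.7%, 12.3%, 7.51% and 11.3% of genes were in stage order. Gjb5 had too few UMIs to enter any of these counts.

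**Figure D3:**
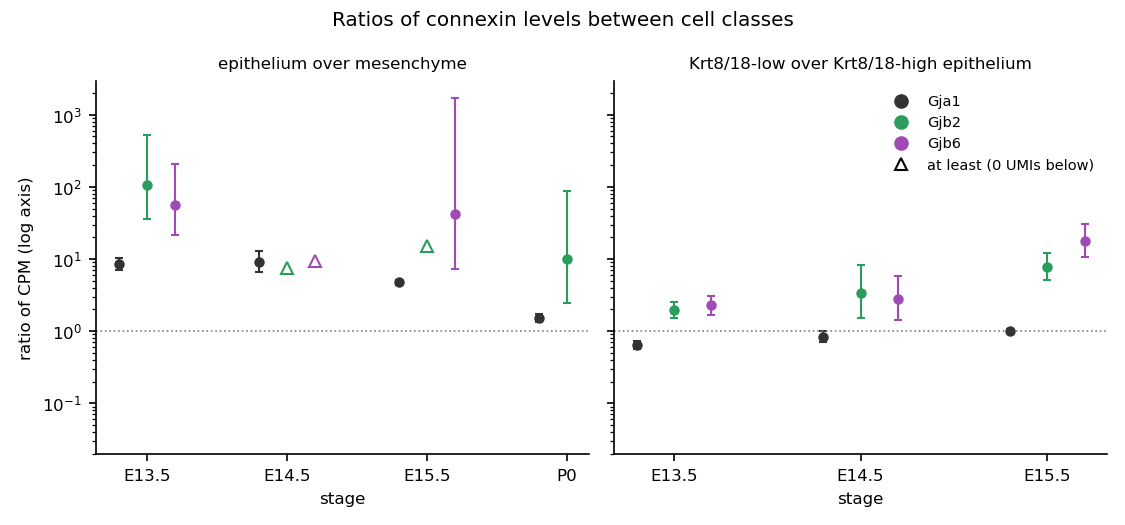
Ratios of levels on a log axis with exact 95% intervals, for epithelium over mesenchyme and for Krt8/18-low over Krt8/18-high epithelium, by gene and stage; triangles are lower bounds against 3 counts where a group held 0 UMIs. Gja1 runs from 8.55 at E13.5 to 1.51 at P0 in the first comparison, and Gjb2 and Gjb6 reach 7.83 and 17.7 at E15.5 in the second.

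Between the epithelial classes the beta connexins and Gja1 differed in opposite directions at E13.5. Krt8/18-low over Krt8/18-high was 1.97 (1.54–2.53), 3.34 (1.51–8.14) and 7.83 (5.06–12.2) for Gjb2 and 2.27 (1.68–3.09), 2.78 (1.41–5.80) and 17.7 (10.6–30.5) for Gjb6 at the 3 embryonic stages. Without the deepest 5% of cells the E14.5 ratios were 25.2 (4.13–1035) and 29.3 (4.85–1195), each against 1 UMI in Krt8/18-high cells. With 10 CPM added Gjb6 was the 1 member past 2-fold at E13.5 (1.16% of genes higher), Gjb2 being at a log2 difference of 0.91. Gjb2 and Gjb6 both passed at E14.5 and E15.5, where 2.74% and 1.29% of genes did.

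With all UMIs counted, shares of cells followed the levels at the embryonic stages. Gjb2 was found in 78.4%, 31.8% and 27.9% of Krt8/18-low cells at the embryonic stages in order, and in 55.7%, 8.70% and 6.73% of Krt8/18-high cells. Gjb6 was found in 81.1%, 45.5% and 26.7% of the former and in 42.6%, 8.70% and 4.71% of the latter. After thinning, the Gjb2 shares were 45.9%, 13.6% and 9.30% against 26.2%, 0% and 2.02%. Thinned Gjb6 shares were 37.8%, 4.55% and 10.5% against 19.7%, 4.35% and 0.897%, so the classes were close at E14.5. At P0 Gjb2 was found in 3.07% of Krt8/18-high cells, a smaller share than at E15.5 though the level was higher. Along the Krt8 plus Krt18 count at E13.5, Gjb2 was 206 CPM with 0 of these UMIs, 169 CPM with 1 to 4, 110 CPM with 5 to 9, 107 CPM with 10 to 19, 72.5 CPM with 20 to 49 and 55.3 CPM with 50 or more. Gjb6 was 127, 148, 79.9, 60.7, 53.6 and 0 CPM in the same bins, the second being above the first. At E15.5 Gjb2 was 26.8, 23.1, 8.43, 5.65, 1.75 and 2.95 CPM and Gjb6 36.8, 24.1, 6.02, 2.83, 1.09 and 1.29 CPM, so the lowest level was in the bin before the last. The E14.5 bins, of 1 to 12 cells, had no single order, and 20 of the 21 Gjb2 UMIs at P0 were in cells with 50 or more.

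Both genes were lower at E15.5 than at E13.5 in both epithelial classes. In Krt8/18-high cells Gjb2 was 30.0-fold lower (20.7–44.3) and Gjb6 35.3-fold lower (21.5–60.4). These were among the largest differences of that comparison, with 24 and 42 of 11652 genes further down at log2 differences of -3.00 and -2.59, and 4.34% of genes lower by 2-fold or more. In Krt8/18-low cells Gjb2 was 7.53-fold lower (5.46–10.5) and Gjb6 4.54-fold lower (3.30–6.28), and both passed 2-fold where 8.92% of genes did. The makeup of these classes differed between stages, however. With the E13.5 class limited to cells led by the bud genes Sostdc1, Tbx3, Pthlh and Ndnf, the Krt8/18-high E15.5 over E13.5 ratio of Gjb2 was 0.347 (0.110–1.76), that of Gjb6 was 0.187 (0.0558–0.979), and that of Gja1 was 1.93 (1.58–2.38) in place of 1.02. The E15.5 class was not limited, and only 52 of its 446 cells were led by these genes, so these ratios do not hold the makeup equal. At P0 Krt8/18-high Gjb2 was 2.55-fold higher (1.42–4.44) than at E15.5, from 21 UMIs in 7 cells, 1 of which held 10.

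Grouping the epithelial cells by marker genes in place of keratins placed the early beta connexins outside the cells led by bud genes. The groups were set after the levels had been seen and are a description. They were cells led by Sostdc1, Tbx3, Pthlh and Ndnf, genes of the mammary bud (21, 28 and 59 cells in order of embryonic stage), cells led by Krt15, Col17a1, Krt1 and Krt10, genes of stratified epidermis (46, 12 and 195 cells), and cells led by Krt17, Gabrp, Krt4 and Krt6a, keratins of periderm and a GABA receptor subunit (31, 3 and 258 cells). Of the 61 Krt8/18-high cells at E13.5, 19 fell in the bud-led group, 14 in the Krt15-led group and 28 in the Krt17-led group. At E15.5, 246 of the 258 Krt17-led cells were Krt8/18-high, so this group is named by its genes and not as periderm. The 7 periderm genes summed above also stood at 1669 CPM in the Krt8/18-high cells of P0.

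At E13.5 Gjb2 gave 3 UMIs (8.47 CPM) in bud-led cells, 205 UMIs (181 CPM) in Krt15-led cells and 64 UMIs (115 CPM) in Krt17-led cells. Gjb6 gave 3 UMIs (8.47 CPM), 155 UMIs (137 CPM) and 30 UMIs (53.9 CPM). Bud-led cells were thus 21.4-fold lower (7.22–105) in Gjb2 and 16.2-fold lower (5.43–79.3) in Gjb6 than Krt15-led cells. Only 1 of 6724 genes was further down than Gjb2 and 4 than Gjb6 with 10 CPM added (log2 differences of -3.37 and -2.99), where 5.77% of genes were lower by 2-fold. Gja1 did not show this, with a ratio of 1.09 (0.873–1.35) from 328 and 301 CPM. It was highest in the Krt17-led cells at 976 CPM.

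At E14.5 bud-led cells were again below Krt15-led cells, in fewer cells, while the 3 Krt17-led cells held 0 Gjb2 and 0 Gjb6 UMIs. Bud-led cells held 1 Gjb2 UMI and 3 Gjb6 UMIs against 33 and 40 in Krt15-led cells, which made them 53.8-fold (9.01–2190) and 21.8-fold (6.93–110) lower. Both were past 2-fold where 7.55% of 6766 genes were, while Gja1 was 1.38-fold higher (1.14–1.68) in the bud-led cells. At E15.5 the difference was smaller, 2.62-fold lower for Gjb2 and 4.30-fold lower for Gjb6, where the Krt15-led cells held 72 and 74 UMIs in 195 cells. Within the Krt15-led group the E15.5 over E13.5 ratio was 0.0770 (0.0581–0.101) for Gjb2 and 0.105 (0.0783–0.139) for Gjb6. The group's makeup differed, with 14 of 46 cells Krt8/18-high at E13.5 and 129 of 195 at E15.5, and its part in these ratios was not tested. Within the bud-led group the ratios of 0.629 (0.151–3.68) and 0.393 (0.0765–2.53) spanned 1, and Gja1 was 2.07-fold higher (1.71–2.53). Gja1 was also 2.06-fold higher (1.84–2.31) at E15.5 than at E13.5 within the Krt15-led group. Within the Krt17-led group its E15.5 over E13.5 ratio was 0.560 (0.511–0.613).

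**Figure D4:**
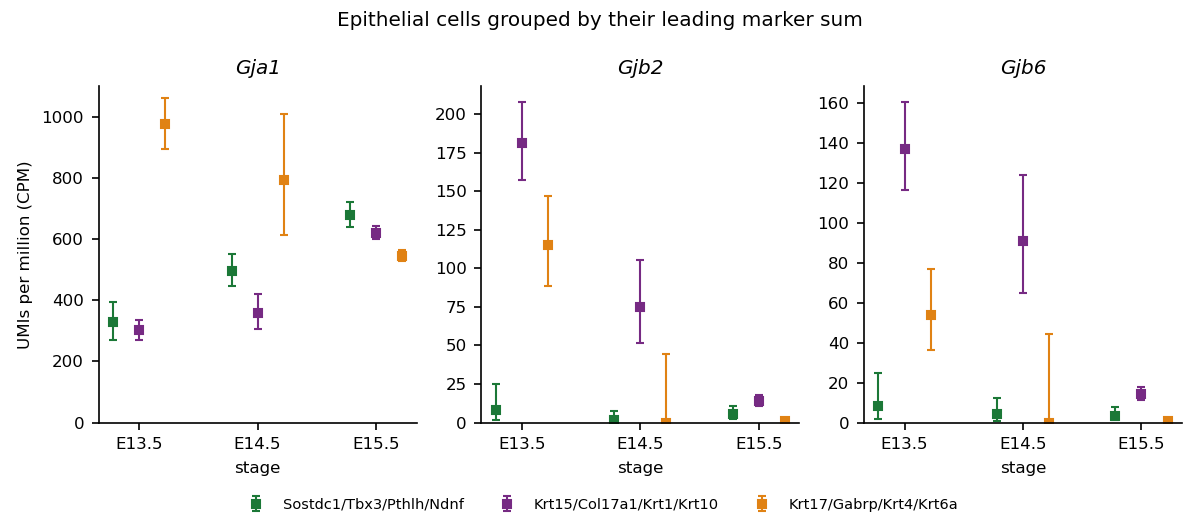
Levels (CPM) of Gja1, Gjb2 and Gjb6 with exact 95% intervals in epithelial cells grouped by their leading markers at the 3 embryonic stages. Bud-led cells lie at 8.47 CPM for both Gjb2 and Gjb6 at E13.5 against 181 and 137 CPM in Krt15-led cells, while Gja1 lies at 328 and 301 CPM in these groups and at 976 CPM in Krt17-led cells.

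Other markers moved with the beta connexins at some stages. Cells with at least 5 UMIs of Krt1 plus Krt10, keratins of differentiating epidermis, held 4.03-fold (2.45–6.45) more Gjb2 and 5.92-fold (3.67–9.41) more Gjb6 than other epithelial cells at E15.5 (38 and 494 cells). At E14.5 the ratios were 4.57 (2.16–9.48) and 4.16 (2.14–7.95), from 4 cells against 41. The E13.5 ratios of 1.24 (0.747–1.96) and 1.16 (0.608–2.04), from 4 cells against 94, spanned 1. At E13.5 dividing Krt8/18-high cells held 135 CPM of Gjb2 against 52.1 CPM in the others, and dividing Krt8/18-low cells 247 against 85.0 CPM. Gjb6 stood at 92.2 against 26.0 CPM in the former, and at 157 against 105 CPM in the latter, where the interval of the ratio (0.985–2.33) spanned 1. At E15.5 no such difference was seen, with Gjb2 ratios of 0.797 (0.358–1.65) and 0.931 (0.399–1.94) that spanned 1, and in E14.5 Krt8/18-low cells the Gjb2 ratio was 0.550 (0.180–1.43). The E14.5 Krt8/18-high values rest on the single cell of 58836 UMIs. The part of division in the level was not tested.

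Gjb2 and Gjb6 shared cells at E13.5 with all UMIs counted, and their shares were close after thinning. At E13.5, 28 of the 29 Krt8/18-low cells with Gjb2 also had Gjb6, against 2 of the 8 without Gjb2, and in Krt8/18-high cells 20 of 34 against 6 of 27. After thinning to 5000 UMIs the counts were 7 of 17 against 7 of 20 and 3 of 16 against 9 of 45, which are close shares. Thinning also left fewer cells with either gene, and the part of depth in the sharing was not tested. At E14.5 the thinned Krt8/18-low cells had Gjb6 in 0 of 3 cells with Gjb2 and 1 of 19 without. At E15.5 the thinned counts were 3 of 8 against 6 of 78 in Krt8/18-low and 1 of 9 against 3 of 437 in Krt8/18-high cells, each resting on few cells.

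Gjb5 was close to undetected. Its 7 UMIs fell in 7 of 1627 cells: mesenchyme held 1 at E13.5 and 1 at E15.5, Krt8/18-high cells held 1 each at E13.5, E15.5 and P0, and Krt8/18-low cells held 2 at E15.5. The E15.5 Krt8/18-high interval ended at 0.455 CPM, so a level above this was not found in the most deeply sampled class. No fold was computed.

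Among the P0 groups Gjb2 gave 20 UMIs in the Aldh1a3-led cells, in 6 of them, and 10 of these UMIs came from 1 cell of 9056 UMIs, so no fold between the groups is given.

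Gjc1, a gamma connexin known from smooth muscle and the early heart, was found in mesenchyme and epithelium. It stood at 87.2, 72.8, 79.9 and 41.9 CPM in mesenchyme, at 25.7, 44.6, 69.5 and 16.6 CPM in Krt8/18-high cells, and at 71.8, 31.1 and 40.6 CPM in Krt8/18-low cells. Gjc1 made up 58.3% of connexin UMIs in E13.5 mesenchyme and 22.1% at P0, while Gja1 made up 38.3%, 40.2%, 60.3% and 76.0% in stage order. In Krt8/18-high epithelium Gja1 made up 73.6%, 85.0%, 87.5% and 75.2%. In E13.5 Krt8/18-low cells it made up 47.4%, with Gjb2 at 24.1% and Gjb6 at 17.6%. Panx1, a pannexin, which forms channels in the membrane of single cells, stood at 12.9, 7.16, 9.37 and 35.5 CPM in mesenchyme and at 17.1, 6.28, 12.1 and 8.41 CPM in epithelium in stage order. At P0 its epithelium over mesenchyme ratio was 0.237 (0.142–0.381), and at the earlier stages the interval spanned 1. Panx2 gave at most 4 UMIs in any class and Panx3 gave 0.

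**Figure D5:**
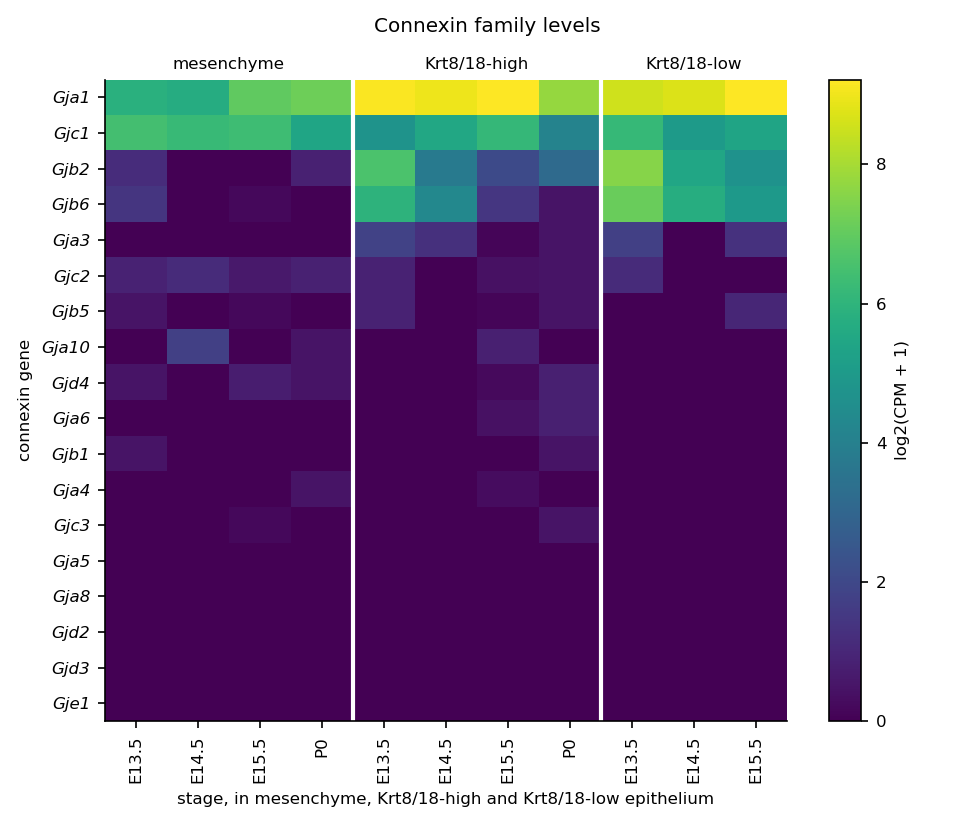
Heat map of log2(CPM + 1) for 18 connexin genes (rows) in 11 groups of stage and class (columns). Gja1 lies between 51.3 and 594 CPM in every column, Gjb2 and Gjb6 are highest in the E13.5 epithelium with 188 and 138 CPM in the Krt8/18-low column, and Gjc1 runs from 41.9 to 87.2 CPM in mesenchyme and from 16.6 to 71.8 CPM in epithelium.

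The proteins that bind, anchor or turn over Gja1 channels were compared as a list of 12 genes. In epithelium over mesenchyme 4 of 12 were past 2-fold higher and 2 lower at E13.5, 6 of 11 higher and 0 lower at E14.5, 5 of 12 higher and 2 lower at E15.5, and 8 of 12 higher and 0 lower at P0. Of all genes 5.72%, 9.32%, 6.56% and 12.4% were higher and 10.7%, 12.3%, 7.51% and 11.3% lower in stage order. Their median log2 differences of 0.31, 1.14, 0.52 and 1.32 stood beside medians of -0.12, 0.02, -0.05 and 0.19 over all genes tested. Tjp1, the scaffold that binds the tail of the Gja1 protein, was 2.67-fold (2.14–3.36), 3.25-fold (2.39–4.50), 4.12-fold (3.72–4.57) and 3.64-fold (2.92–4.57) higher in epithelium. Its ratio at P0 was therefore above that of Gja1 (1.51), and at E13.5 below it (8.55).

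The cadherins of the list split by tissue at E13.5. Cdh1 was past 2-fold higher in epithelium at every stage, while Cdh2 was counted as 2-fold lower at E13.5 and E15.5 and not at E14.5 or P0. At E14.5 only 11 of the 12 listed genes held enough UMIs to enter the count, so no call there need not mean equal levels. Cdh1, epithelial cadherin, stood at 147 CPM in E13.5 epithelium and at 1.66 CPM in mesenchyme, and Cdh2, the cadherin of mesenchymal cells, at 0 and 72.7 CPM. Nedd4, a ubiquitin ligase that acts on the Gja1 protein, was lower in epithelium at every stage, from 0.705 (0.654–0.760) at E13.5 to 0.561 (0.525–0.600) at P0, and never by 2-fold. Vcl, an actin linker of cell junctions, was 5.35-fold higher (4.46–6.45) in P0 epithelium, while Gja1 there was at its nearest to mesenchyme.

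Over the 12 groups of stage and class, the genes most like each member were ranked by Pearson's r of log2(CPM + 10) among 11438 genes. The groups share libraries, so r is a description. Gjb2 was nearest to Irx4 (r = 0.978), an Iroquois homeobox factor, and to Gjb6 (0.973), and Gjb6 to Gjb2 (0.973) and Irx4 (0.954), followed by Hpgds (0.949), a prostaglandin D synthase. Gja1 was nearest to Kif21a (0.956), a kinesin, Ovol1 (0.950), a zinc finger factor of epithelia, and Nectin1 (0.947), an adhesion protein. Without the P0 group of 2 cells, r was no lower for any of the 5 genes nearest Gja1, but other genes ranked above most of them. Then 1 of these 5 remained and Kdm3a came first (0.982), whereas 3 of 5 remained for Gjb2 and 4 of 5 for Gjb6. With 1 CPM added in place of 10, 5 of 5 remained for Gja1 and 2 of 5 each for Gjb2 and Gjb6. Without the E14.5 groups 3 of 5 remained for each.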

How the data were processed

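Single-cell RNA was measured in 4 libraries, 1 per stage. The authors deposited raw UMI counts per gene and cell, made with Cell Ranger and the pre-built mm10 reference. The submitters' processing notes give version 6.0.0 for all stages, while the header of the E15.5 table gives 3.1.0. Doublets were excluded at the sort by the authors, no doublet caller was run here, and 11, 1, 12 and 15 cells with counts of both tissues (the smaller sum at least 10% and 2 UMIs) were kept.

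Counts were summed per class and scaled to CPM with Python 3.11.15, NumPy 2.4.6 and SciPy 1.17.1 (plots with Matplotlib 3.10.9). Intervals are exact Poisson for levels, exact conditional binomial for ratios and exact binomial for shares, all at 95%. Only the ratio intervals were checked, on simulated Poisson counts. These have no spread between cells, so the check does not cover genes whose UMIs lie in few cells. A fold against 0 UMIs was set against 3 counts, and no fold was given where both groups held 3 UMIs or fewer. Differences past 2-fold were counted with 10 CPM added among genes with at least 20 UMIs. Kept cells held 4506046, 2111282, 21559040 and 5122125 UMIs in stage order. In P0 mesenchyme 4 cells held at least 100 globin UMIs.

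The genes named are the 4 members, other connexins and pannexins (some connexins are not reported here), 12 partners, and the 5 genes most like each member. Members and lists were chosen with earlier results of these data known. The alternatives tried were a 3000 UMI minimum, a 10% mitochondrial limit, other keratin limits, thinning to 5000 UMIs, mean over cells, and leaving out mixed cells, the deepest 5% of cells or cells led by other markers. No authors' comparison columns were used. Promoter windows and gene models are those of RefSeq (GRCm38.p6) and GENCODE M21.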

Additional observations from a re-analysis of the deposited data

Results flagged for a closer look

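Ratios that lay on opposite sides of 1 in different groups, each with an interval that excluded 1, are given here. In each case the difference itself was not tested, since each stage is 1 library. Gja1 at P0 over E15.5 was 1.16 in mesenchyme and 0.373 in Krt8/18-high epithelium, and at P0 over E13.5 it was 2.51 and 0.380.

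In the comparisons of marker groups, Gja1 in bud-led over Krt17-led cells went from 0.336 at E13.5 and 0.626 at E14.5 to 1.24 at E15.5. Gja1 in Krt15-led over Krt17-led cells was 0.309, 0.453 and 1.14 at those stages. Gjb2 in bud-led over Krt17-led cells was 0.0737 at E13.5 and 4.24 at E15.5, and Gjb6 was 0.157 and 5.96. The Krt17-led group was 31 of 98 epithelial cells at E13.5 and 258 of 532 at E15.5, and the part of its makeup was not tested.

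Krt8/18-low over Krt8/18-high Gjc1 was 2.79 at E13.5 and 0.584 at E15.5, and E15.5 over E13.5 it was 2.70 in Krt8/18-high and 0.566 in Krt8/18-low cells. Bud-led over Krt15-led Gjc1 was 0.426 at E13.5 against 2.21 at E14.5 and 1.45 a day later, and Krt15-led over Krt17-led Gjc1 was 6.15 at E13.5 and 0.850 at E15.5.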

How the results depend on the processing

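Of 37 ratios under the alternatives, 300 values were classed as the same, 10 lost and 3 gained an interval apart from 1, 2 moved and 0 were classed as reversed. The last count leaves out a change of side where the main interval spanned 1. Gja1 in Krt8/18-high cells, E15.5 over E13.5, was 1.02 in the main setting. With a keratin limit of 10 it fell below 1 and was classed among the gained. No paired analysis was possible because each stage is 1 library with no replicate. Low UMI numbers limit Gjb2, Gjb6 and Gjb5, above all at E14.5, and 9 results had no value under an alternative because both groups then held 3 UMIs or fewer. Where no cause is given it was not tested.

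Thinning to 5000 UMIs, which leaves fewer UMIs, gave 0.833 for Gja1 low over high at E14.5, 1.22 for Gja1 in mesenchyme P0 over E15.5, 1.74 for Gjb2 in high cells P0 over E15.5, 0.919 for epithelial over mesenchymal Gjb6 at E14.5 (against 3 counts) and 1.82 for Gjb6 low over high at E13.5. A keratin limit of 10 gave 0.877 for Gja1 low over high at E14.5 and 0.859 for Gja1 in high cells E15.5 over E13.5, and a limit of 1 after thinning gave 1.09 for Gja1 low over high at E15.5. The mean over cells gave 1.90 for Gja1 epithelium over mesenchyme at P0 and 0.439 for Gja1 in high cells P0 over E15.5. With only bud-led E13.5 cells, an alternative chosen after seeing the data that left the E15.5 and P0 classes whole, Gja1 in high cells E15.5 over E13.5 was 1.93, Gjb2 was 0.347, Gjb2 P0 over E13.5 was 0.884 and Gjb6 epithelium over mesenchyme at E13.5 was 5.10. With a 3000 UMI minimum Gjb6 in mesenchyme E15.5 over E13.5 was 0.250.

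The 26 levels gave 208 values under the alternatives, of which 184 stayed within the main interval of their level and 24 moved beyond it. In CPM, thinning gave Gja1 416 (E13.5 low), 112 (E15.5 mesenchyme) and 246 (P0 high), Gjb2 78.7 (E13.5 high), 151 (E13.5 low), 0 (E14.5 high) and 27.3 (E14.5 low), and Gjb6 114 (E13.5 low), 8.70 (E14.5 high), 27.3 (E14.5 low) and 20.9 (E15.5 low). A limit of 10 gave Gja1 679 (E13.5 high), and Gjb2 2.68 and Gjb6 0 (E14.5 high). The limit after thinning gave Gja1 565 (E14.5 high) and 631 (E15.5 low), and Gjb2 1.71 and Gjb6 0 (E14.5 high). Without mixed cells Gja1 was 114 (E15.5 mesenchyme) and 199 (P0 high), without the deepest cells 244 (P0 high) with Gjb2 and Gjb6 1.94 (E14.5 high), and by mean over cells 254 (P0 high). Thinning also lowered 20 of 26 shares of cells by more than their intervals.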
